A study of Mus musculus with 18 samples.

Results

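Laminins and integrins, the proteins through which basal keratinocytes hold on to the basement membrane and through which leukocytes leave blood vessels, were followed from chronically irradiated skin to papilloma and squamous cell carcinoma in hairless mice. Members were all genes of the expression table whose symbol names a laminin chain (Lama, Lamb or Lamc with a number) or an integrin alpha or beta subunit. There were 36 of them among 14521 named genes, namely 11 laminin chains, 17 integrin alpha subunits and 8 integrin beta subunits. They were grouped by the tissue in which each is known to be made, which gave 10 epithelial members, 8 members made by many cell types, 10 stromal, vascular and muscle members and 8 leukocyte and platelet integrins. Itgad, the remaining leukocyte subunit on that list, was not analysed here.

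The mice were female SKH-1E littermates, an outbred hairless strain, and had received chronic low-dose ultraviolet B from solar simulators starting at 3 months of age. Each of 6 mice (numbered 2, 3, 7, 8, 9 and 10) gave 3 samples, namely chronically irradiated skin with no lesion of its own (CHR), papilloma (PAP) and squamous cell carcinoma of the skin (SCC), so that the groups share mice and ultraviolet exposure and no unirradiated skin was compared. RNA came from whole tissue and was sequenced to between 15.4 M and 21 M counted reads per library (median 18.9 M) in 18 libraries. Levels are given as normalised reads, that is, reads per gene divided by the scaling factor of the library, and fold changes are log2 differences of the deposited variance-stabilized values plus 1, which understate changes of weakly expressed genes.

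A laminin is a trimer of 1 alpha, 1 beta and 1 gamma chain. Laminin-332, to which Lama3 and Lamb3 belong, is the main laminin under the epidermis, laminin-511 (Lama5, Lamb1, Lamc1) is found under epithelia and vessels, and chains such as Lama2 and Lama4 belong to muscle, nerve and vessel walls. An integrin is a pair of 1 alpha and 1 beta subunit. The alpha6-beta4 pair anchors keratinocytes in hemidesmosomes, alpha3-beta1 binds laminin at focal contacts, and the beta2 integrins (Itgb2 with Itgal, Itgam or Itgax) are restricted to leukocytes.

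Tissue composition differed between the groups. All 8 keratinocyte markers were detected in every library, and their summed level was 256000 to 399000 normalised reads in CHR, 646100 to 1016000 in PAP and 215400 to 697900 in SCC. Summed skeletal muscle markers (6 genes) lay between 371100 and 556300 in CHR, between 120.6 and 27610 in PAP and between 342.9 and 186000 in SCC. The papilloma and the carcinoma of mouse 10 stood apart, with the lowest fibroblast, myeloid, smooth muscle and skeletal muscle sums of their groups. In whole tissue, fewer cells of a type and less RNA per cell cannot be told apart.

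The first comparison asked which members differ between a papilloma and the irradiated skin of the same mice. In PAP vs CHR, 12 of 36 members (33.3%) rose, where 22.8% of all genes did, and 16 of 36 (44.4%) fell, where 28.7% of all genes did. The direction differed between the groups of members, which were chosen with earlier results of these data known. Of the 8 members made by many cell types 2 rose and 3 fell. Among epithelial members 9 of 10 rose, among leukocyte and platelet integrins 7 of 8 fell and none rose, and among stromal, vascular and muscle members 5 of 10 fell and 1 rose. The median log2 fold change was 1.99 in the epithelial members, −1.92 in the leukocyte and platelet integrins and −1.14 in the stromal, vascular and muscle members, against 0.001 over all genes. Values of the groups did not overlap for 7 members that were higher in PAP (14.4% of all genes) and for 10 that were lower (19.2% of all genes).

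**Figure D1:**
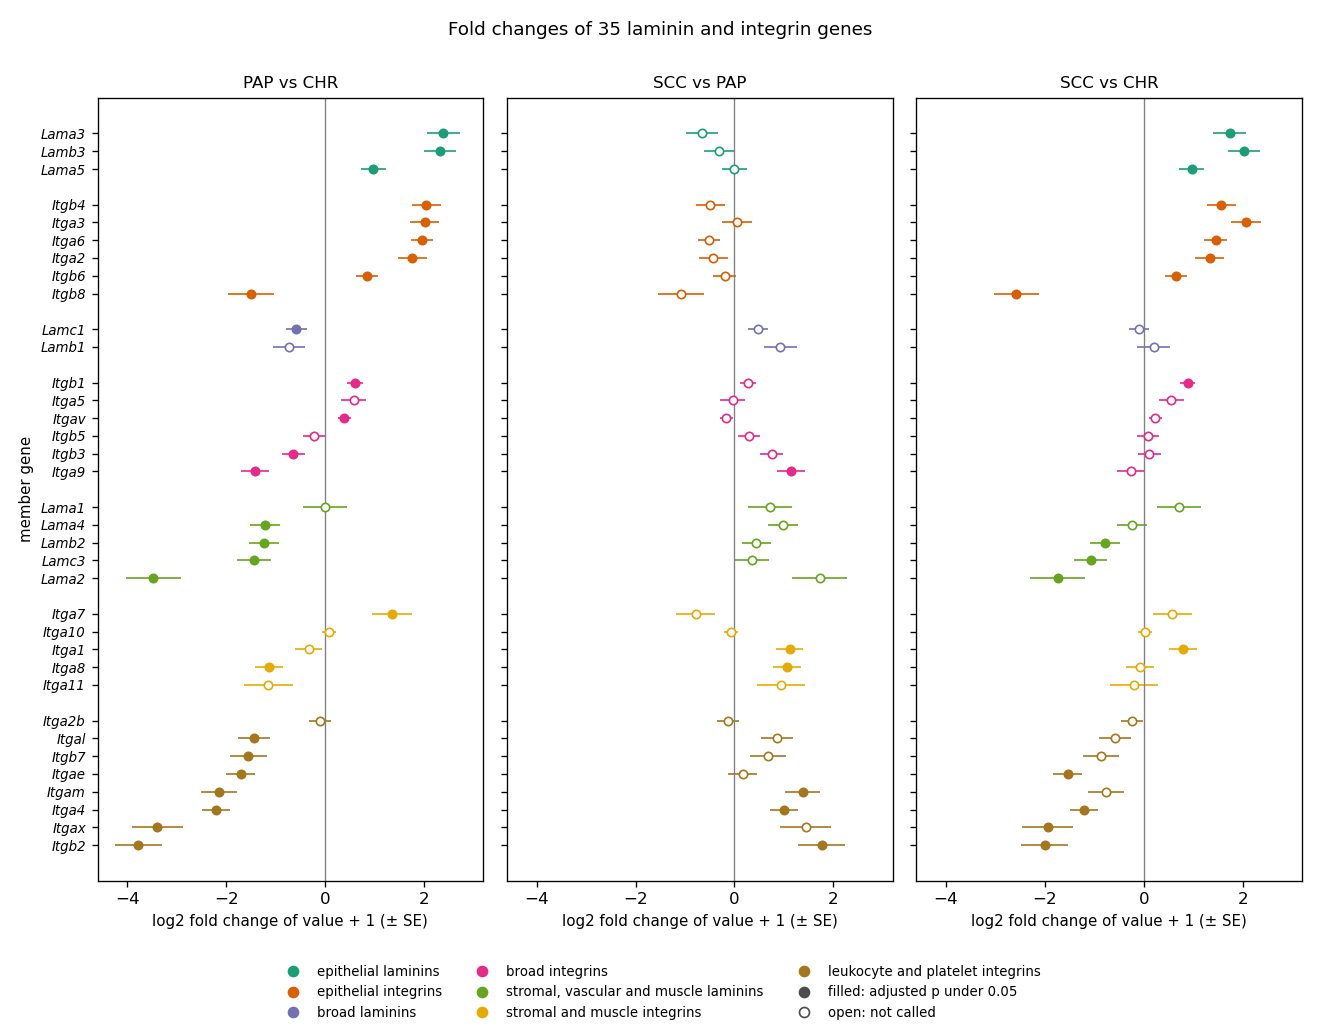
Log2 fold changes (x axis, log2 of value + 1, bars ± SE) of 35 members (y axis) in PAP vs CHR, SCC vs PAP and SCC vs CHR, coloured by group. Filled points have an adjusted p under 0.05 and open points do not. In PAP vs CHR the epithelial members lie to the right of 0 except Itgb8 at −1.50, and the leukocyte integrins lie to the left, down to Itgb2 at −3.78.

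Lama3 and Lamb3, chains of laminin-332, were higher in papillomas. Lama3, an alpha chain, had 2245 to 7672 normalised reads in CHR (median 3984), 13760 to 37190 in PAP (median 17960) and 6801 to 24070 in SCC (median 13360). The lowest papilloma was above the highest irradiated skin, and the log2 fold change was 2.39 ± 0.33 (SE, n = 6 per group, limma adjusted p = 1.24e-05). Lamb3, a beta chain, ran from 1095 to 4050 in CHR (median 1999), from 7233 to 19650 in PAP (median 8307) and from 6113 to 15780 in SCC (median 6841). Again PAP and CHR did not overlap (2.33 ± 0.32, adjusted p = 1.26e-05). Mouse 3 had the highest CHR level of both, and mouse 7 the highest PAP level of both.

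The chains of laminin-511 did not move together. Lama5, its alpha chain, rose from 1000 to 2471 in CHR (median 1209) to 1551 to 4726 in PAP (median 3090), with a log2 fold change of 0.97 ± 0.25 (adjusted p = 0.0038). It was higher in 5 of 6 papillomas, and in mouse 3 the papilloma had less than the skin. Lamc1, the gamma chain shared by most laminins, had 3486 to 6656 in CHR (median 5279) and 2896 to 4222 in PAP (median 3442), and fell by 0.58 on the log2 scale (SE 0.21, adjusted p = 0.0255), lower in 6 of 6 mice. That call was lost without mouse 7 (adjusted p = 0.0793), mouse 8 (0.0612) or mouse 9 (0.082). Lamb1, its beta chain, had 2429 to 5532 in CHR (median 3765), 821.2 to 3149 in PAP (median 2587) and 1762 to 6560 in SCC (median 4955). Its difference of −0.73 ± 0.33 between PAP and CHR did not pass (adjusted p = 0.0688) without the mouse as a block and passed with it (adjusted p = 0.0236, and 0.0239 by limma-voom with the block).

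**Figure D2:**
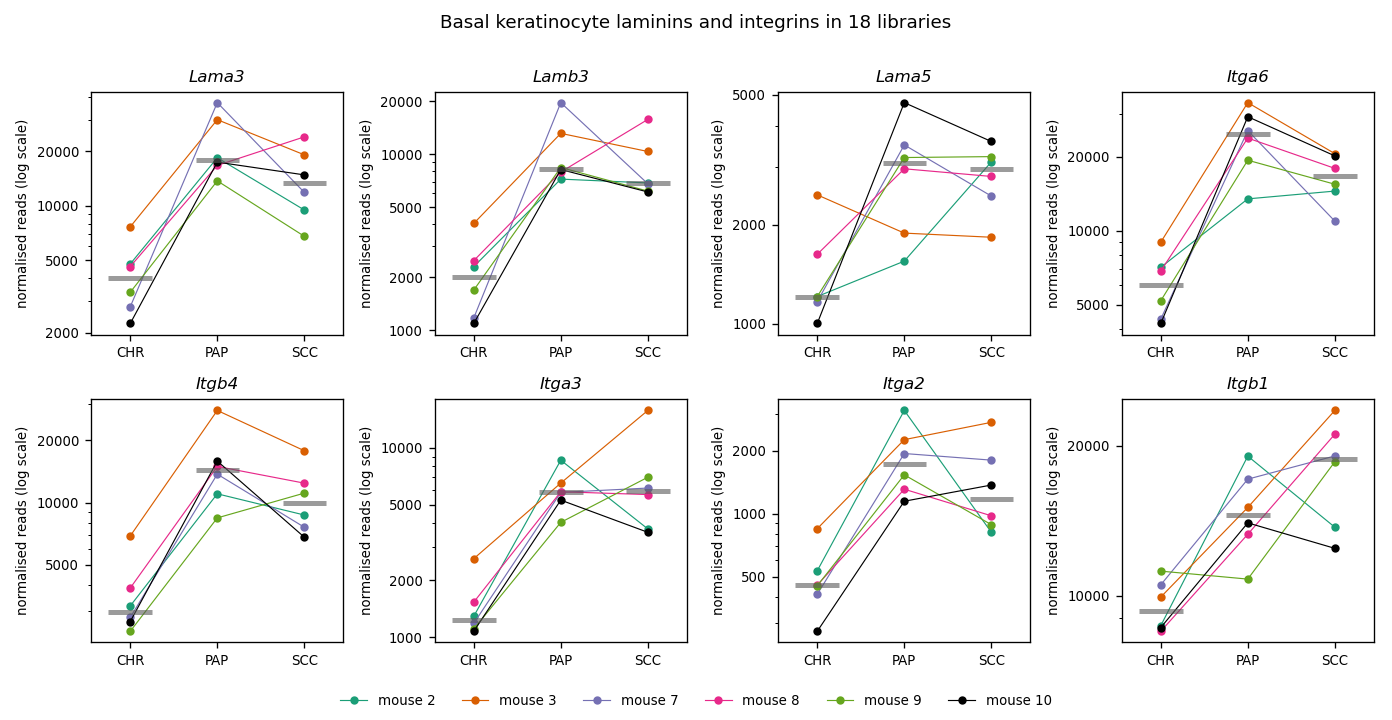
Normalised reads (y axis, log scale) of 8 genes for basal keratinocyte laminins and integrins in CHR, PAP and SCC (x axis). Each point is a library, lines join the 3 libraries of a mouse, and grey bars are group medians. Lama3, Lamb3, Itga6, Itgb4, Itga3 and Itga2 have no papilloma as low as the highest irradiated skin.

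Counted per kilobase of exon, so that chains of different length can be compared, the ratio of Lamb3 to Lamb1 was 0.407 to 1.72 in CHR (median 0.73), 3.63 to 15.0 in PAP (median 6.02) and 1.89 to 5.2 in SCC (median 2.54). No papilloma overlapped irradiated skin (exact permutation test on the log2 ratio, two-sided, p = 0.00216, the smallest that 6 against 6 allows, adjusted p = 0.00792 over 33 tests of 11 ratios). It was lower in SCC than in PAP by 1.26 on the log2 scale (exact permutation test, p = 0.0152, adjusted p = 0.0334), in 6 of 6 mice. This permutation takes libraries of 1 mouse as independent. Exact sign flips within mice, added after seeing the data, cannot give a p under 0.0312 with 6 mice, and none of the 33 ratio tests passed adjustment that way (lowest adjusted p = 0.0645), where 16 passed with libraries permuted, so the ratios are given below with the number of mice that moved each way. For Lama3 over Lama5 the medians were 2.97, 8.6 and 4.76. PAP exceeded CHR in 6 of 6 mice (exact permutation test, p = 0.00433, adjusted p = 0.0119), and SCC vs PAP did not pass (exact permutation test, p = 0.203, adjusted p = 0.258).

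Both subunits of the hemidesmosome integrin rose. Itga6 had 4202 to 8994 normalised reads in CHR (median 6033), 13500 to 33250 in PAP (median 24730) and 10960 to 20620 in SCC (median 16730). Every papilloma and every carcinoma was above every irradiated skin (PAP vs CHR 1.96 ± 0.23, adjusted p = 2.14e-06). Itgb4, its beta subunit, had 2391 to 6897 in CHR (median 2979), 8431 to 27830 in PAP (median 14320) and 6804 to 17790 in SCC (median 9904). Papillomas did not overlap irradiated skin (2.05 ± 0.29, adjusted p = 1.84e-05), whereas the lowest carcinoma, that of mouse 10, was below the CHR value of mouse 3. Per kilobase, the ratio of Itga6 to Itgb4 had medians of 1.3 in CHR, 1.34 in PAP and 1.12 in SCC. Its log2 difference of −0.10 in PAP vs CHR did not pass (exact permutation test, p = 0.621, adjusted p = 0.683). The ratio was higher in PAP in 3 of 6 mice and lower in 3, and a test that did not pass does not show equal rises.

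**Figure D3:**
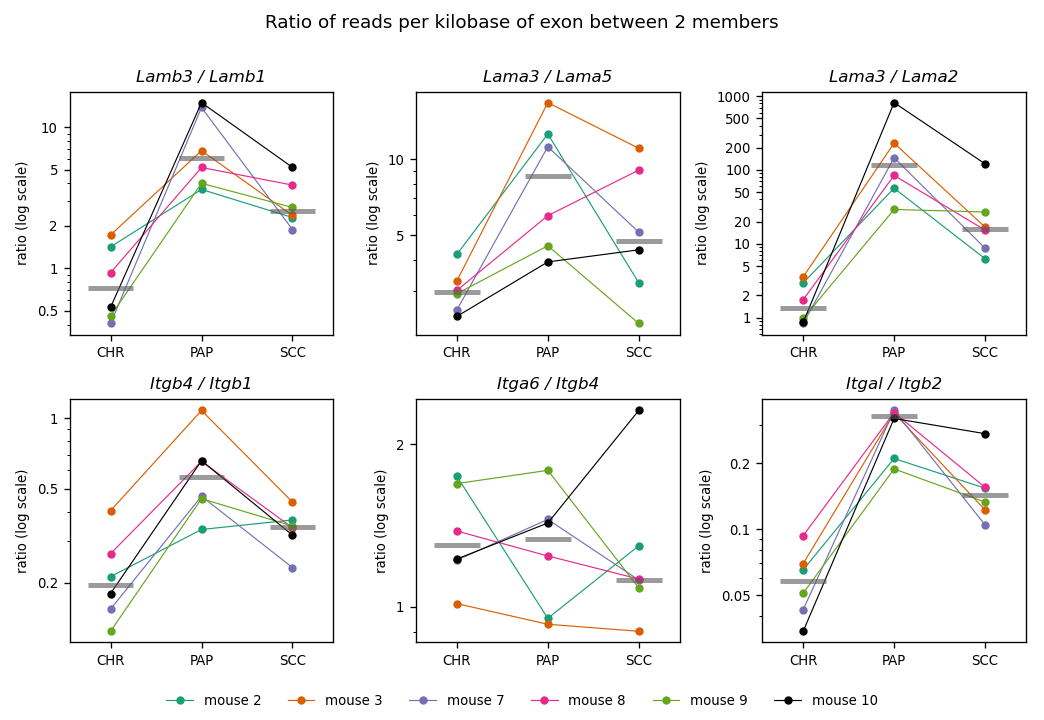
Ratios of reads per kilobase of exon between 2 members (y axis, log scale) in CHR, PAP and SCC (x axis), 1 point per library, lines joining the libraries of a mouse, grey bars at group medians. Lamb3 over Lamb1 and Lama3 over Lama2 are higher in every papilloma than in any irradiated skin, while Itga6 over Itgb4 has medians of 1.3, 1.34 and 1.12.

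The laminin and collagen receptors of the basal keratinocyte rose too. Itga3, the alpha subunit of the other laminin-332 receptor, had 1074 to 2598 in CHR (median 1236), 4041 to 8608 in PAP (median 5842) and 3581 to 15770 in SCC (median 5901). Both lesion groups lay above all irradiated skin (PAP vs CHR 2.02 ± 0.30, adjusted p = 2.6e-05), and the carcinoma of mouse 3 was the highest library. Itga2, a collagen receptor subunit, had 273.5 to 846.2 in CHR (median 453.1), 1145 to 3112 in PAP (median 1734) and 813.6 to 2730 in SCC (median 1172). Papillomas and irradiated skin did not overlap (1.76 ± 0.29, adjusted p = 8.44e-05). Itga2 and Itga1 lie on the same strand of chromosome 13 (114833081 to 114932100 and 114953096 to 115101964, GRCm38), and Itga1, the collagen receptor subunit of mesenchymal cells, had a PAP vs CHR difference of −0.33 ± 0.28 that did not pass (adjusted p = 0.335).

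Itgb1, the beta subunit shared by many alpha subunits, had the highest level per kilobase of the 36 members in each group, with medians of 2281 in CHR, 3556 in PAP and 4612 in SCC. Its normalised reads ran from 8475 to 11190 in CHR, from 10790 to 19060 in PAP and from 12440 to 23540 in SCC. PAP exceeded CHR in 5 of 6 mice (0.62 ± 0.16, adjusted p = 0.0039), and every carcinoma exceeded every irradiated skin (0.88 ± 0.16, adjusted p = 4.2e-04). The per-kilobase ratio of Itgb4 to Itgb1 had medians of 0.196 in CHR, 0.56 in PAP and 0.345 in SCC. PAP exceeded CHR in 6 of 6 mice (exact permutation test, p = 0.00433, adjusted p = 0.0119). The ratio was lower in SCC than in PAP in 5 of 6 mice and higher in mouse 2 (0.336 in PAP and 0.369 in SCC), a difference that passed with libraries permuted (exact permutation test, p = 0.0152, adjusted p = 0.0334) and did not pass with exact sign flips within mice (p = 0.0625, adjusted p = 0.115).

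Itgb6 and Itgb8, which pair with the alpha v subunit and activate latent TGF-beta, moved in opposite directions. Itgb6 had 692 to 935.1 in CHR (median 807.8), 920.4 to 2467 in PAP (median 1571) and 716.7 to 1979 in SCC (median 1427), and was higher in the papilloma of 6 of 6 mice (0.85 ± 0.23, adjusted p = 0.00457). Itgb8 had 1534 to 3672 in CHR (median 2349), 455.2 to 1154 in PAP (median 973.1) and 38.03 to 942.9 in SCC (median 458.8). It was the 1 epithelial member that fell, with no overlap between papillomas and irradiated skin (−1.50 ± 0.46, adjusted p = 0.0113), although without mouse 10 its adjusted p was 0.057. Itgav itself had 4438 to 4941 in CHR, 5062 to 7912 in PAP and 3620 to 6580 in SCC. The groups PAP and CHR did not overlap (0.39 ± 0.13, adjusted p = 0.0173), and the call was lost without mouse 8 (adjusted p = 0.0576) or mouse 10 (0.0739) and under quantile normalization (0.0611).

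Among keratinocyte markers, 6 of 8 rose in PAP vs CHR. Krt14, the basal keratin, rose by 1.76 and Dsg3, a desmosomal cadherin, by 2.19 on the log2 scale, while Cdh1, the epithelial cadherin, differed by 0.12 (adjusted p = 0.579). The part of a higher keratinocyte share in the rise of the epithelial members was not tested. The partners of alpha6-beta4 were less uniform. Of 5 hemidesmosome and anchoring genes 3 rose and none fell. Col7a1, the anchoring fibril collagen, rose by 1.61 (adjusted p = 0.00813), Col17a1, a transmembrane hemidesmosome collagen, by 1.54 (adjusted p = 0.000149) and Cd151, a tetraspanin, by 0.42 (adjusted p = 0.00377). Dst and Plec, the linkers from hemidesmosomes to keratin filaments, differed by 0.17 (adjusted p = 0.525) and 0.14 (adjusted p = 0.457).

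Other basement membrane genes did not follow Lama3 and Lamb3. Of 12 measured, 2 rose and 4 fell. Col4a3 and Col4a4, chains of a restricted collagen IV network, had 30.71 to 373.7 and 27.83 to 270.6 normalised reads in CHR and at most 1.791 and 6.267 in PAP. Col15a1 fell by 1.61 (adjusted p = 0.000707) and Nid1, the linker between laminins and collagen IV, by 1.23 (adjusted p = 0.00767). Those that rose were Col18a1 (1.15, adjusted p = 3.73e-05) and Agrn, agrin (0.80, adjusted p = 0.0102). Of 4 other laminin receptors, Sdc1 (0.67, adjusted p = 0.00133) and Rpsa (0.54, adjusted p = 0.00213) rose, Rpsa with reads that may be shared with its many pseudogenes, while Dag1, dystroglycan, differed by 0.004 and Bcam by 0.40 without passing (adjusted p = 0.987 and 0.138).

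The leukocyte integrins fell furthest. Itgb2, the common beta2 subunit, had 3353 to 9786 normalised reads in CHR (median 5986), 91.25 to 620.7 in PAP (median 386) and 316.9 to 4769 in SCC (median 1254). Its median was 15.5 times lower in PAP than in CHR, the groups did not overlap, and the log2 fold change was −3.78 ± 0.48 (adjusted p = 5.08e-06). Itgax, the alpha subunit of dendritic cells and some macrophages, had 2899 to 10650 in CHR (median 5721), 84.96 to 1146 in PAP (median 435.1) and 389.5 to 4683 in SCC (median 1123), with −3.39 ± 0.51 in PAP vs CHR (adjusted p = 2.88e-05). Itgam, the alpha subunit of macrophages and granulocytes, had 1807 to 3664 in CHR (median 2268), 247.5 to 667.9 in PAP (median 516.9) and 445.9 to 4411 in SCC (median 1287), with −2.14 ± 0.36 (adjusted p = 9.35e-05). Of the Itgam exon bases 68.7% are shared with the annotated gene Gm49368, so its reads are less certain than those of its neighbours.

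Itgal, the alpha subunit of lymphocyte LFA-1, had 471 to 903.8 in CHR (median 682.7), 62.93 to 353.6 in PAP (median 217.1) and 186.2 to 1074 in SCC (median 345.5), with −1.44 ± 0.33 (adjusted p = 0.00133). Beta2 fell further than this partner. Per kilobase, the ratio of Itgal to Itgb2 was 0.0342 to 0.0934 in CHR, 0.188 to 0.348 in PAP and 0.105 to 0.273 in SCC, with no overlap of either lesion group with CHR (exact permutation test, p = 0.00216, adjusted p = 0.00792 for both) and a lower ratio in SCC than in PAP in 6 of 6 mice (exact permutation test, p = 0.0108, adjusted p = 0.0274). The ratio of Itgam to Itgb2 was higher in PAP in 6 of 6 mice, with medians of 0.262 and 0.9 (exact permutation test, p = 0.00216, adjusted p = 0.00792). That of Itgax to Itgb2 had medians of 0.607 and 0.83 and did not pass (exact permutation test, p = 0.0455, adjusted p = 0.0834).

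Itga4, the alpha subunit of the VCAM-1 receptor of leukocytes, had 938.1 to 1642 in CHR (median 1214), 60.83 to 337.5 in PAP (median 244) and 270.4 to 968 in SCC (median 435.3). It fell in 6 of 6 papillomas without overlap (−2.21 ± 0.28, adjusted p = 5.77e-06). Itgae, the alpha subunit by which intraepithelial T cells and some dendritic cells bind E-cadherin, had 570.1 to 1307 in CHR (median 919), 52.44 to 361.9 in PAP (median 306.9) and 145.3 to 481.8 in SCC (median 264.2), and fell without overlap (−1.71 ± 0.30, adjusted p = 1.23e-04). Its beta partner Itgb7 had 537.5 to 1137 in CHR, 160.4 to 557.2 in PAP and 142.4 to 902.5 in SCC and fell by 1.55 (SE 0.37, adjusted p = 0.00199), although the papilloma of mouse 9 reached into the CHR range. Itga2b, the platelet alpha subunit, was the 1 member of the group that was not called, with 189.6 to 320.4 in CHR, 113.8 to 444.1 in PAP and 128.8 to 308.9 in SCC (−0.10 ± 0.23, adjusted p = 0.737).

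**Figure D4:**
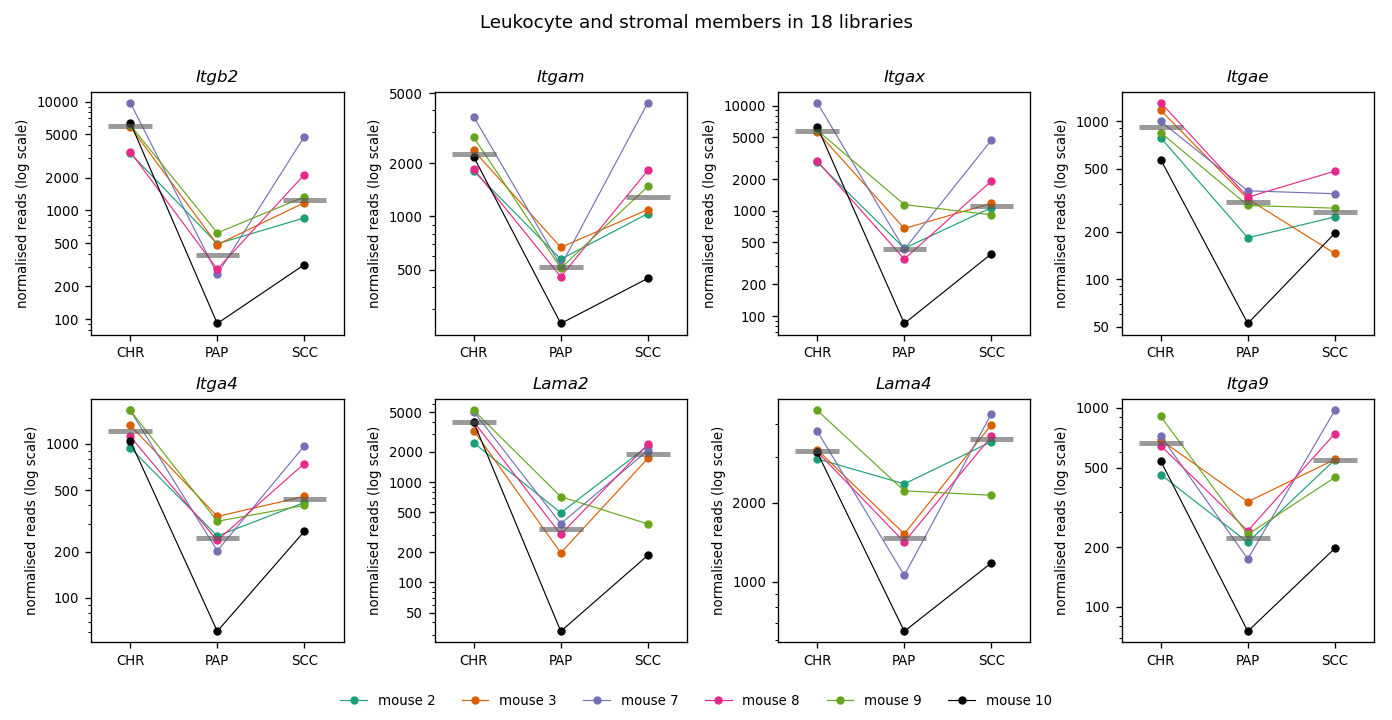
Normalised reads (y axis, log scale) of 8 leukocyte and stromal members in CHR, PAP and SCC (x axis), 1 point per library, lines joining the libraries of a mouse, grey bars at group medians. All 8 fall from CHR to PAP, and the papilloma of mouse 10 (black) is the lowest for each.

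Leukocyte markers moved with these integrins. All 8 measured myeloid markers fell in PAP vs CHR, and their summed level was 39380 to 62050 normalised reads in CHR, 1157 to 7233 in PAP and 3919 to 55950 in SCC. Of T cell markers 6 of 7 fell, with sums of 1086 to 1680 in CHR, 229.7 to 540.1 in PAP and 308 to 1057 in SCC. All 5 mast cell markers (5903 to 10950, 108 to 1889 and 1421 to 3601) and all 3 Langerhans cell markers (2591 to 7076, 564.3 to 2617 and 834.4 to 2401) fell, as did 1 of 4 neutrophil markers. The Langerhans cell sums were mostly Epcam, with medians of 3663 in CHR, 1474 in PAP and 1397 in SCC. Cd207 had medians of 534.3, 110.8 and 34.59. No myeloid, T cell, mast cell or Langerhans cell marker was at 0 in any library, and the part of these cells in the fall of the integrins was not tested. Of the platelet markers Pf4 fell (−2.66, adjusted p = 2.08e-06), and Ppbp differed by 0.23 (adjusted p = 0.536). Fermt3, the kindlin of blood cells that activates beta2 integrins, fell by 2.14 (adjusted p = 8.49e-05), whereas Fermt1, the keratinocyte kindlin, rose by 1.199 (adjusted p = 4.26e-05).

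The counter-receptors of leukocyte integrins were mixed. Of 7 measured, 1 rose and 3 fell. Jam2, an endothelial junction molecule, fell by 2.42 (adjusted p = 7.11e-07), Vcam1, the ligand of alpha4-beta1, by 1.49 (adjusted p = 0.0115) and Jam3 by 0.93 (adjusted p = 0.0037). F11r, the epithelial JAM-A, rose by 0.96 (adjusted p = 0.00196). Across 21 integrin activators and adhesion adaptors 5 rose and 9 fell, with Tns1, a tensin, at −2.58 (adjusted p = 1.33e-05) and Tns4, an epithelial tensin, at 1.58 (adjusted p = 1.42e-05). Of 5 integrin inhibitors 2 fell, Dok1 by 1.28 (adjusted p = 0.0016) and Itgb1bp1 by 0.35 (adjusted p = 0.00421).

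Stromal, vascular and muscle laminin chains fell in 4 of 5 cases. Lama2, the chain of muscle and nerve laminins, had 2460 to 5196 in CHR (median 3988), 32.51 to 715.4 in PAP (median 343.7) and 186.2 to 2384 in SCC (median 1897). It was 11.6 times lower in PAP by medians, without overlap (−3.47 ± 0.55, adjusted p = 5.53e-05). Lama4, a vessel wall chain, had 2943 to 4499 in CHR (median 3161), 648.2 to 2361 in PAP (median 1471) and 1181 to 4366 in SCC (median 3501), and fell without overlap (−1.22 ± 0.30, adjusted p = 0.00282). Lamb2 fell by 1.23 (SE 0.30, adjusted p = 0.00221) and Lamc3 by 1.44 (SE 0.34, adjusted p = 0.00188), the latter from at most 297.4 normalised reads in CHR. Lama1, an embryonic chain, had a median of 24.12 in CHR and 10.43 in PAP, with 389.4 in the papilloma of mouse 9 alone (−0.001 ± 0.44, adjusted p = 0.999).

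Per kilobase, Lama3 exceeded Lama2 by a median ratio of 1.36 in CHR, 115 in PAP and 16.1 in SCC. The ratio ran from 0.835 to 3.57 in CHR and from 29.2 to 817 in PAP (exact permutation test, p = 0.00216, adjusted p = 0.00792), and from 6.29 to 121 in SCC, where it was lower than in PAP in 6 of 6 mice (exact permutation test, p = 0.0173, adjusted p = 0.0357). Of the fibroblast markers 4 of 6 fell in PAP vs CHR, with sums of 132900 to 298900 in CHR, 4776 to 160400 in PAP and 17030 to 492900 in SCC. Of smooth muscle and pericyte markers 3 of 5 fell (7539 to 10480, 1692 to 9099 and 2481 to 13540), as did all 6 skeletal muscle markers, 4 of 5 adipocyte markers (3686 to 9764, 1450 to 12780 and 1211 to 21610) and 2 of 3 Schwann cell markers (1193 to 2244, 1187 to 2113 and 910.9 to 1602). Endothelial markers, of which 2 of 6 rose and 2 fell, summed to 4190 to 5962, 3057 to 5444 and 4908 to 7627. The adipocyte sums of the lesions were mostly Fabp4 (1444 to 12780 in PAP and 1180 to 21360 in SCC), the marker that was not called. The 4 that fell had medians under 3 normalised reads in PAP, for Adipoq 1268 in CHR, 0.95 in PAP and 60.25 in SCC. The Schwann cell sums were mostly Mbp, likewise not called. At least 1 adipocyte marker was at 0 in 5 papillomas and 2 carcinomas, and 1 carcinoma had a skeletal muscle marker at 0. The part of these tissues in the fall of the stromal laminins was not tested.

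Among the remaining integrins, Itga7 went against its group. It is the laminin receptor subunit of skeletal muscle, and it rose in 6 of 6 papillomas, from 569.2 to 961.8 in CHR (median 721.4) to 589.5 to 5287 in PAP (median 2506), with 707.9 to 2262 in SCC (1.36 ± 0.40, adjusted p = 0.00867). The papilloma of mouse 9 was highest and that of mouse 10 lay within the CHR range. Skeletal muscle markers moved the opposite way in the same libraries, Acta1, skeletal actin, by −7.65 (adjusted p = 6.64e-06). Itga8, a subunit of mesenchymal cells, had 156.1 to 337.8 in CHR, 10.49 to 239.3 in PAP and 159.4 to 330.6 in SCC and fell by 1.14 (SE 0.28, adjusted p = 0.00283). Itga11, the fibrillar collagen receptor of fibroblasts, had medians of 675.7 in CHR and 268.5 in PAP (−1.14 ± 0.49, adjusted p = 0.0583, 0.0194 with the mouse as a block and 0.0978 by limma-voom with the block).

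Itga9, a receptor subunit for tenascin and osteopontin, had 462.2 to 904.7 in CHR (median 667.9), 75.52 to 337.5 in PAP (median 221.3) and 197 to 970.2 in SCC (median 549.5), and fell without overlap (−1.42 ± 0.28, adjusted p = 4.01e-04). Itgb3, the beta subunit of platelets and osteoclasts, fell by 0.64 (SE 0.24, adjusted p = 0.031), a call lost without mouse 7 (adjusted p = 0.126), mouse 8 (0.058), mouse 9 (0.0758) or mouse 10 (0.0856) and under quantile normalization (0.0805). Itga5, the fibronectin receptor subunit, had 529.6 to 1601 in CHR and 1274 to 1957 in PAP (0.59 ± 0.25, adjusted p = 0.0601, 0.0269 with the mouse as a block and 0.0274 by limma-voom with the block). Itgb5 (−0.22 ± 0.22, adjusted p = 0.438) and Itga10 (0.08 ± 0.14, adjusted p = 0.656) were not called. Fibronectin, Fn1, a ligand of alpha5-beta1, fell by 1.83 (adjusted p = 0.00674), as did 5 more of 11 other integrin ligands, none of which rose, among them Nov (−2.89, adjusted p = 0.000789) and Emilin1 (−1.71, adjusted p = 0.0101).

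**Figure D5:**
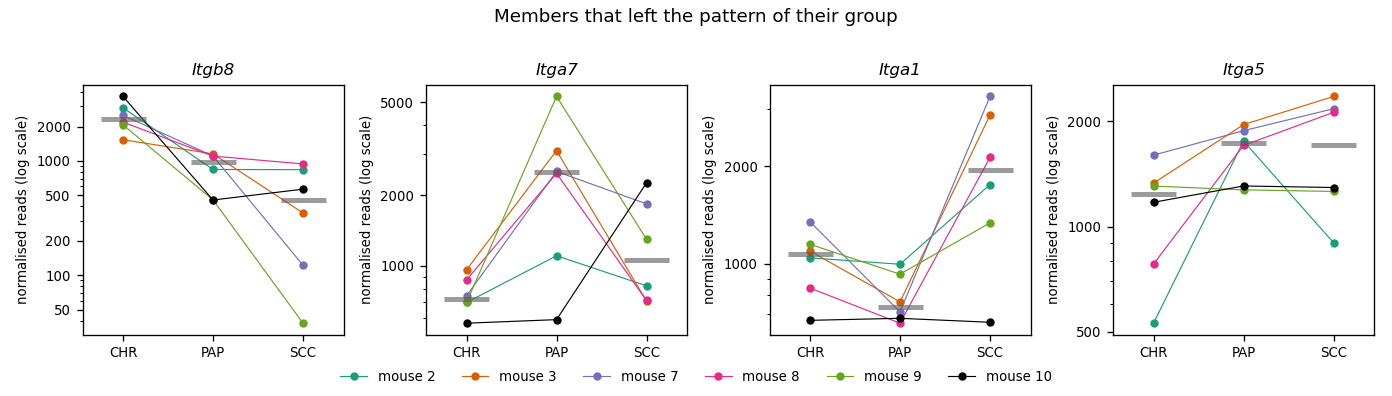
Normalised reads (y axis, log scale) of Itgb8, Itga7, Itga1 and Itga5 in CHR, PAP and SCC (x axis), 1 point per library, lines joining the libraries of a mouse, grey bars at group medians. Itgb8 has medians of 2349, 973.1 and 458.8, and Itga7 peaks in PAP with a median of 2506.

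Promoter sequences were read for short motifs. AP-1, ETS2 and ELK1 were among the factors the study reported, and the ETS-family motif read here was instead that of PU.1. RefSeq (GRCm38.p6) promoters of 250 bases before to 50 after the start were held for 23 of 36 members, 26 promoters in all. The AP-1 site TGANTCA, searched on both strands, occurred in 7.81% of all 32851 promoters and in those of 3 members, Itga3, Itgax and Itga9. The ETS-family core GAGGAA of PU.1, a factor of myeloid cells, searched on both strands as GAGGAA and TTCCTC, occurred in 28.28% of all promoters and in 14 of 26 member promoters. These were not confined to leukocyte and platelet integrins (Itgam, Itga2b and Itgb7). They included epithelial members that rose in PAP (Lamb3, Lama5, Itga3 and Itgb6) and stromal chains that fell (Lama2 and Lamb2). The windows below are shown because they hold the AP-1 letters of members that moved in opposite directions and the 3 GAGGAA matches of Itgam. Capitals mark the motif and each is written 5′ to 3′ in the direction of the gene. 
Itga3, at chr11:95069169-95069197 on the minus strand: gggctggtgccTGAATCActggcttgctc
Itgax, at chr7:128129483-128129511 on the plus strand: cccacctcctcTGAGTCAcgctgacaact
Itga9, at chr9:118711719-118711741 on the plus strand: gcagactggtcTGACTCAaggag
Itgam, at chr7:128062545-128062572 on the plus strand: gttttctcccgGAGGAAggctacagagg
Itgam, at chr7:128062614-128062641 on the plus strand: ctcatagctttTTCCTCatacttctctg
Itgam, at chr7:128062661-128062688 on the plus strand: gccttggtggcTTCCTCaaagtgtctgt
The starts used for Itga9 and Itga3 lie inside the annotated genes (118606690 to 118901003 and 95044474 to 95076801), kilobases from the annotated 5′ ends. Among matches named above, the same holds for Lamb3 (193207699 to 193343878), Itgb6 (60598292 to 60722643) and Lama2 (26980036 to 27619758). Of the members whose windows are shown, Itga3 rose in PAP and the others fell, and a match of letters is a description only.

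The second comparison asked which members differ between carcinomas and papillomas. In SCC vs PAP, 6 of 36 members (16.7%) were higher, where 4.99% of all genes were, and none was lower, where 0.592% of all genes were. With the mouse as a block 10 members were higher by limma and 7 by limma-voom, and none was lower by either. At an unadjusted limma p under 0.05, 13 members were higher and 2 were lower, Itga6 and Itgb8. Itgb2 rose by 1.77 ± 0.48 (adjusted p = 0.0414), Itgam by 1.38 ± 0.36 (adjusted p = 0.0384) and Itga4 by 0.999 ± 0.28 (adjusted p = 0.0465), each higher in the carcinoma of 6 of 6 mice. Itga9 (1.15 ± 0.28, adjusted p = 0.031) and Itga8 (1.07 ± 0.28, adjusted p = 0.04) were also higher in 6 of 6 mice, and Itga1 (1.12 ± 0.28, adjusted p = 0.0334) in 5 of 6. None of these members had fully separated groups, and the share of all genes that did was not counted for this comparison.

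These 6 are leukocyte, stromal and broadly made subunits, and no epithelial member was called. The block added Lama4 (adjusted p = 0.0329, and 0.0492 by limma-voom with the block) and Lamb1 (0.0324 and 0.0481) by both tools. It added Itgal (0.0407 and 0.0807) and Lama2 (0.0418 and 0.0911) by limma alone, and limma-voom with the block did not call Itga8 (0.0789). Quantile normalization ended the calls of Itga4 (0.0602) and Itga8 (0.0641). The count changed with the mouse that was left out. It was 1 without mouse 2 or mouse 9, 0 without mouse 3, 7 or 8, and 12 without mouse 10, and it was 14 when the carcinoma of mouse 10 alone was left out. It was also 0 by limma-voom on the recovered reads, where the adjusted p of Itgb2 was 0.103. Marker sums were highest in the carcinoma of mouse 7 for myeloid cells (55950), and that carcinoma had the highest Itgb2, Itgam, Itgax, Itgal, Itga4, Itga9 and Itga1. Of myeloid markers 3 of 8 were higher in SCC than in PAP (7 with the block), as were 5 of 6 skeletal muscle markers, 2 of 5 smooth muscle and pericyte markers (Myh11 and Cnn1, and all 5 with the block), 2 of 6 endothelial markers (Pecam1 and Tek), 1 of 6 fibroblast markers (Pdgfra) and 1 of 2 platelet markers (Pf4). Of keratinocyte markers 3 of 8 were lower. Their part in the difference was not tested.

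Epithelial members had a median log2 difference of −0.42 in SCC vs PAP, against −0.019 over all genes. Lama3 was at −0.66 ± 0.33 (adjusted p = 0.245), Itga6 at −0.51 ± 0.23 (adjusted p = 0.188), Itgb4 at −0.49 ± 0.29 (adjusted p = 0.347) and Itgb8 at −1.08 ± 0.46 (adjusted p = 0.17). Each was lower in the carcinoma of 5 of 6 mice. Itga7 was at −0.78 ± 0.40 (adjusted p = 0.255), and without mouse 10, the 1 mouse in which it was higher in the carcinoma, its difference was −1.304 (adjusted p = 0.0135). Spp1, osteopontin, was the 1 of 11 other integrin ligands called without the block (1.99, adjusted p = 0.0441). With the mouse as a block 5 were higher by limma, Spp1 (adjusted p = 0.0386), Nov (0.0326), Fbln5 (0.0235), Emilin1 (0.0216) and Vtn (0.027). Fermt2, the kindlin of mesenchymal cells, was higher by 1.26 (adjusted p = 0.0495), and Tns4 was lower by 0.79 (adjusted p = 0.0459).

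The third comparison set carcinomas against irradiated skin. In SCC vs CHR, 11 of 36 members (30.6%) rose, where 15.1% of all genes did, and 8 of 36 (22.2%) fell, where 21.4% of all genes did. The groups did not overlap for 4 members that were higher, Itga3, Itga6, Itgb1 and Lamb3 (8.49% of all genes), and for 3 that were lower, Itgae, Itgb8 and Lama2 (11.2% of all genes). The epithelial members again split 9 to 1. Itga3 rose by 2.07 ± 0.30 (adjusted p = 5.58e-05), Lamb3 by 2.03 ± 0.32 (adjusted p = 1.31e-04), Lama3 by 1.73 ± 0.33 (adjusted p = 6.06e-04), Itgb4 by 1.56 ± 0.29 (adjusted p = 5.37e-04) and Itga6 by 1.45 ± 0.23 (adjusted p = 1.19e-04). Itga2 (1.34 ± 0.29, adjusted p = 0.00192), Lama5 (0.97 ± 0.25, adjusted p = 0.0064) and Itgb6 (0.66 ± 0.23, adjusted p = 0.0311) rose as well. The call of Itgb6 was lost without mouse 2 (adjusted p = 0.0516), mouse 7 (0.0803), mouse 8 (0.104) or mouse 10 (0.122).

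Itgb8 had the largest fall of the 36 members in SCC vs CHR, by 2.58 (SE 0.46, adjusted p = 3.62e-04), with 38.03 normalised reads in the carcinoma of mouse 9 and 942.9 in that of mouse 8. Of the leukocyte integrins 4 of 8 stayed lower, Itgb2 (−2.003 ± 0.48, adjusted p = 0.00337), Itgax (−1.95 ± 0.51, adjusted p = 0.00633), Itgae (−1.54 ± 0.30, adjusted p = 6.56e-04) and Itga4 (−1.21 ± 0.28, adjusted p = 0.00295). With the mouse as a block Itga5 was higher (adjusted p = 0.0444, and 0.0466 by limma-voom with the block). Itgam (0.0476 and 0.0646) and Itgb7 (0.0253 and 0.0662) were lower by limma with the block but were not called by limma-voom with it, and the members called lower numbered 8 without the block, 9 with it and 6 by limma-voom with it. Of 8 myeloid markers 6, of 7 T cell markers 6, all 5 mast cell markers and all 3 Langerhans cell markers were lower in SCC than in CHR. So were 5 of 6 skeletal muscle, 4 of 5 adipocyte, 2 of 3 Schwann cell, 1 of 6 fibroblast and 1 of 2 platelet markers. Of keratinocyte markers 3 of 8 were higher (Krt14, Trp63 and Dsg3), of endothelial markers 3 of 6 were higher and 1 lower, and of smooth muscle and pericyte markers 1 of 5 was higher (Acta2) and 1 lower (Myh11). Their part in the differences was not tested. Lama2 (−1.74 ± 0.55, adjusted p = 0.0199) lost its call without mouse 9 (adjusted p = 0.0897), and Lamc3 (−1.08 ± 0.34, adjusted p = 0.0189) without mouse 7 (0.0872) or mouse 9 (0.0691) and by limma-voom with the block (0.0767). Lamb2 (−0.79 ± 0.30, adjusted p = 0.0458) lost it with the mouse as a block (0.0607, and 0.0671 by limma-voom) and without mouse 3 (0.06), mouse 8 (0.088), mouse 9 (0.18) or mouse 10 (0.15).

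Itga1 was the 1 stromal member higher in carcinomas than in skin, with 669 to 1348 normalised reads in CHR, 655.5 to 996.4 in PAP and 659.8 to 3282 in SCC (0.79 ± 0.28, adjusted p = 0.0337). Of the carcinomas, that of mouse 10 lay below the CHR median and the other 5 between 1337 and 3282. The call was lost without mouse 2 (adjusted p = 0.0703), mouse 3 (0.116), mouse 7 (0.0758), mouse 8 (0.123) or mouse 9 (0.0502). Tnc, tenascin-C, rose by 1.90 in SCC vs CHR (adjusted p = 0.0117), from a median of 10690 to 38320.

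The progression model of the study classes a gene by unadjusted p under 0.05 in a mixed model with the mouse as random effect. It placed 20 of 36 members in the early class (41.1% of all genes), changed in the same direction in PAP and in SCC against CHR. Early members could still differ between SCC and PAP. In this model Itgb2 (log2 difference 1.775) and Itgb4 (−0.485) did, both back towards CHR, while Itga3 (0.055) and Lama5 (−0.005) did not pass. The model placed 1 member in the late class (2.2% of all genes) and 1 in the stepwise class (0.523% of all genes). The late member was Itga1 (higher) and the stepwise member was Itgb8 (lower), with p = 0.00942 for PAP vs CHR and p = 0.0437 for SCC vs PAP in the linear mixed model over n = 18 libraries. The early members were 11 that were higher, the 9 epithelial ones plus Itgb1 and Itga5, and 9 that were lower, among them Itgb2, Itgax, Itgam, Itga4, Itgae and Lama2. The remaining 14 members had no call in SCC vs CHR in this model.

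Ranked per kilobase of exon, the highest members in CHR after Itgb1 were Itgb2 (median 1961), Itgax (1191), Itgb5 (708.2) and Itga6 (668.5). Among the highest in PAP were Itga6 (2740), Itgb4 (2042) and Lama3 (1672), and in SCC Itga6 (1853), Itgb4 (1412) and Lama3 (1244). The ranges of these 3 overlapped within PAP and within SCC. Itgb2, second in CHR, was 18th in PAP and 12th in SCC.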

How the data were processed

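RNA-seq of 18 mouse libraries was analysed (6 each of CHR, PAP and SCC, grouped by sample title). The authors aligned reads to mm10 with MOSAIK, counted them per gene with HTSeq, scaled the counts by size factors and stabilized their variance with DESeq2. The deposited values come rounded to integers, with the log of that transformation undone by the authors, and were read as an expression score; annotation, strandedness and tool versions were not given in the sources used here. The methods also describe a batch-median correction; the table still stepped in whole reads. Of 14542 entries, 21 had no symbol (at most 0.236% of the summed deposited values of a library) and 14521 were tested.

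The transformation was inverted with a zero level of 39.13. Whole reads gave back 99.35% of the values within 0.5 of the deposited integer, and 100% of those under 100. Size factors were 0.835 to 1.178. These reads serve for levels and for limma-voom.

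Comparisons used log2(value + 1) of all 18 libraries in limma 3.58.1 under R 4.3.3, two-sided, with group as the only term and Benjamini-Hochberg adjustment over all genes at a threshold of 0.05. Classes came from a linear mixed model checked against nlme (version 3.1.168). Same-numbered libraries come from the same mouse, so a fit with the mouse as a block was also made. Deviations from group means of same-mouse libraries correlated between −0.245 and 0.507. Among 153 pairs of libraries the largest share of identical values was 2.24%. Ratios between members were tested by exact permutation of libraries, without regard to mouse, and, as an alternative added after seeing the data, by exact sign flips within mice. Alternatives were limma-voom with and without the block, the 2 groups alone, other pseudocounts, filters at 10 reads (34 of 36 members had 10 reads in every library, all except Lama1 and Lamc3, and 36 had them in 6 libraries), other scalings, and each mouse left out. The fits were tested on simulated data. For limma, libraries were simulated without a mouse effect and 200 of 14521 genes were changed in PAP vs CHR. The fit recovered 70% of these genes, and 7.28% of its calls at the threshold of 0.05 were false. A comparison without changes gave 2 calls.

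All members enter the counts, and 1 of them is not reported here by name. Named in full were chains of laminin-332 and laminin-511, the basal keratinocyte integrins and the members with the largest fold changes, and of each partner list the genes with the largest fold changes; other partners and all single markers named were chosen after their values were seen. Members, groups, partner and marker lists were chosen with earlier results of these data known. GENCODE M21 (GRCm38, the build of mm10) matched 36 of 36 members and gave coordinates and exon lengths. Of the listed partners Icam4 and Madcam1, and of the markers Gp9, Gp1ba and Sox10, were not analysed here, and Adgre1 was measured under its older symbol Emr1.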

Additional observations from a re-analysis of the deposited data

Results flagged for a closer look

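Dixon's test for 1 stray library was applied to the normalised reads, without a log, of 35 members in 3 groups of n = 6, that is, 105 tests, and 11 stood out. Chance would flag about 1 in 20 only if the reads were normally distributed. That was not checked, so the number of flags cannot be set against this rate. Mouse 3 gave the highest CHR level of Itga3 (2598, next 1531) and Itgb4 (6897, next 3867), and the highest SCC level of Itga3 (15770, next 6997) and Lama1 (243.3, next 97.9). The carcinoma of mouse 7 gave the highest Itgam (4411, next 1825) and Itgax (4683, next 1917). The papilloma of mouse 9 gave the highest Itgb7 (557.2, next 216.2), Lama1 (389.4, next 16.37) and Lamc3 (127, next 46.93). The carcinoma of mouse 8 gave the highest Lamc3 (321.2, next 80.51), and the CHR library of mouse 2 the lowest Lamb2 (1776, next 2504).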

How the results depend on the processing

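Of 53 member calls none changed sign under the 17 alternatives. In PAP vs CHR 24 of 28 calls passed in every alternative listed at the outset that tests the gene, in SCC vs CHR 14 of 19 and in SCC vs PAP 0 of 6. Members higher in SCC vs PAP numbered 6 in the main test, 10 with the replicate block (mouse), 7 by limma-voom with the block, and 0 by limma-voom without it, with only the 2 groups compared, with 10 reads required in every library and with limma-voom scaled to the library total. Leaving out 1 mouse, or the carcinoma of mouse 10 (an alternative chosen after seeing the data), gave 0 to 14 higher and 0 to 1 lower. The late class held 1 to 2 members and the stepwise class 0 to 2 without 1 mouse, and the stepwise class held 0 with Benjamini-Hochberg adjustment. The block, by either tool, changed no member call but those given above. Among markers, limma with the block gave 5 fibroblast markers lower in PAP vs CHR instead of 4. In SCC vs PAP it gave 3 mast cell markers higher instead of 0 and 2 fibroblast markers instead of 1. Krt5 was lower there in place of Krt14. In SCC vs CHR 4 keratinocyte markers were higher instead of 3, and 6 skeletal muscle markers lower instead of 5. Partner counts moved as well, with 4 of 21 activators and adaptors higher and 10 lower in PAP vs CHR. No ratio test passed adjustment with signs flipped within mice. Quantile normalization shifted the median of all genes by 0.165 in PAP vs CHR, and no called member turned sign under it, but it ended the calls of Itgav (adjusted p = 0.0611) and Itgb3 (0.0805) in PAP vs CHR and of Itga4 (0.0602) and Itga8 (0.0641) in SCC vs PAP.

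Uncalled differences near 0 turned sign. With 1 mouse or library left out the ranges were −0.013 to 0.149 (Itga10, PAP vs CHR), −0.174 to 0.042 (Itga10, SCC vs PAP), −0.029 to 0.146 (Itga10, SCC vs CHR), −0.595 to 0.176 (Itga11, SCC vs CHR), −0.251 to 0.1 (Itga2b, PAP vs CHR), −0.296 to 0.055 (Itga2b, SCC vs PAP), −0.187 to 0.303 (Itga3, SCC vs PAP), −0.095 to 0.147 (Itga5, SCC vs PAP), −0.184 to 0.085 (Itga8, SCC vs CHR), −0.034 to 0.375 (Itgae, SCC vs PAP), −0.054 to 0.282 (Itgb3, SCC vs CHR), −0.015 to 0.239 (Itgb5, SCC vs CHR), −0.505 to 0.16 (Lama1, PAP vs CHR), −0.355 to 0.0 (Lama4, SCC vs CHR), −0.2 to 0.096 (Lama5, SCC vs PAP), −0.267 to 0.094 (Lamc1, SCC vs CHR) and −0.016 to 0.73 (Lamc3, SCC vs PAP). Quantile normalization gave 0.178 for Itga2b and 0.509 for Lama1 in PAP vs CHR, 0.008 for Itga5 and 0.079 for Lama5 in SCC vs PAP and 0.086 for Itga8 in SCC vs CHR. Limma-voom scaled to the library total gave 0.025 for Itga5 and 0.059 for Lama5 in SCC vs PAP, limma-voom gave −0.012 for Itga10 in SCC vs CHR, and a pseudocount of 10 gave 0.026 for Lama1 in PAP vs CHR. The causes were not tested. With 6 mice and whole-tissue RNA, members with few reads, such as Lama1 and Itga10, are the least precise.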
